A study of Mus musculus with 18 samples.

Results

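The 10 genes described here encode serine/arginine-rich (SR) splicing factors: *Srsf1*, *Srsf2*, *Srsf3*, *Srsf4*, *Srsf5*, *Srsf6*, *Srsf7*, *Srsf9*, *Srsf10* and *Srsf11*. They were taken by gene symbol from the 54752 genes of the RNA files, and their 85 annotated isoforms are among the 138835 transcripts of the same files. Gencode places each isoform in 1 class: 29 were protein_coding, 26 retained_intron, 15 nonsense_mediated_decay (NMD) and 15 processed_transcript. The last 3 classes are called nonproductive here by class alone. Some of their isoforms, such as the NMD isoform *Srsf2*-202, end at the normal stop codon. All 10 genes were also present in the footprint files, which hold 22523 genes.

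SR proteins bind short enhancer sequences in exons through RNA recognition motifs and recruit the spliceosome through a domain of repeated arginine and serine residues. Many of them limit their own amount by splicing: when the protein is abundant, its transcript takes up a conserved exon with an early stop codon, called a poison exon, or an intron is kept or removed so that the mRNA is degraded by nonsense-mediated decay or stays in the nucleus. Nonsense-mediated decay needs a ribosome that reaches the early stop codon.

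The study profiled the cerebellum of mice at 3 weeks of age that lack one of 2 related GTPases that act on paused ribosomes. The groups were B6J (wild type, C57BL/6J), B6J.*Gtpbp1*-/-, a congenic C57BL/6J line homozygous for a targeted *Gtpbp1* allele (PGK-Neo in place of sequence of exons 3 and 4), and B6J-*Gtpbp2*-/-, which is homozygous for the ENU-induced null allele nmf205. All groups, controls included, carry the C57BL/6J processing mutation of n-Tr20, a tRNA Arg gene with the anticodon UCU that decodes AGA. Each genotype had 3 RNA-seq libraries and 3 ribosome profiling libraries, each footprint library from the cerebellum of 1 mouse. *Ddx3y* counts marked 1 of 3 B6J, 2 of 3 B6J.*Gtpbp1*-/- and 0 of 3 B6J-*Gtpbp2*-/- RNA libraries as male, so sex differs in part with genotype. Sex was fitted for RNA of genes and for the isoform ratio, and its part in the results on single isoforms was not tested.

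RNA libraries held from 37794598 to 52114400 estimated counts (median 49294194), and footprint libraries from 3630823 to 10442573 counts (median 6281637). A single SR gene received between 1117 and 16130 estimated RNA counts and between 55 and 1209 footprints in a library. Log2 normalised values of mice that share a genotype had Pearson's r from 0.991 to 0.996 over genes in RNA and from 0.960 to 0.976 in footprints, a description with no test. The labels place all RNA libraries in batch 1 and all footprint libraries in batch 2, so batch and assay cannot be told apart. Both mutants were compared with the same 3 B6J libraries of each assay, so the 2 comparisons with B6J share their controls.

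The mutated genes were examined first. RNA from *Gtpbp1* (CPM, counts scaled to library size after TMM normalisation) was 71.0, 77.9 and 66.7 in the B6J libraries, 44.0, 41.7 and 43.9 in B6J.*Gtpbp1*-/- and 58.7, 72.1 and 65.7 in B6J-*Gtpbp2*-/- libraries. It fell in B6J.*Gtpbp1*-/- mice (log2 fold change -0.73, SE 0.0818, edgeR adjusted p = 5.94e-05). Footprints on *Gtpbp1* were 73.6, 117 and 84.9 CPM in B6J and 32.0, 25.5 and 35.6 CPM in B6J.*Gtpbp1*-/- libraries (log2 fold change -1.57, SE 0.227, edgeR adjusted p = 0.00676). *Gtpbp1* was lower in every B6J.*Gtpbp1*-/- library than in any other, as the labels require. *Gtpbp2* RNA was 85.9, 74.1 and 88.1 CPM in B6J and 65.5, 75.4 and 72.7 CPM in B6J-*Gtpbp2*-/- libraries (log2 fold change -0.22, SE 0.0925, edgeR adjusted p = 0.190), and the libraries of the 2 genotypes overlapped. In B6J.*Gtpbp1*-/- libraries *Gtpbp2* RNA was higher, at 109, 100 and 104 CPM (log2 fold change 0.34, SE 0.0828, edgeR adjusted p = 0.0154). Footprints on *Gtpbp2* were 44.8, 36.1 and 38.5 CPM in B6J and 28.9, 26.4 and 7.54 CPM in B6J-*Gtpbp2*-/- libraries (log2 fold change -0.97, SE 0.443, edgeR adjusted p = 0.321), so all 3 mutant libraries were lower but the test did not call the difference, and the RNA level alone does not check this label.

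Markers of several cerebellar cell types differed between genotypes. The granule neuron markers summed to 2588, 2580 and 2779 TPM (estimated counts scaled to transcript length and library size) in B6J, 1660, 1617 and 1890 TPM in B6J.*Gtpbp1*-/- and 1788, 1865 and 1623 TPM in B6J-*Gtpbp2*-/- libraries, and 4 of 6 were lower in all 3 libraries of each mutant than in any B6J library. *Cbln1* was the most abundant over all libraries. The microglia markers summed to 50.6, 52.4 and 57.3 TPM in B6J, 127, 110 and 113 TPM in B6J.*Gtpbp1*-/- and 111, 113 and 120 TPM in B6J-*Gtpbp2*-/- libraries. *C1qa* was the most abundant, and 4 of 4 were higher in all 6 mutant libraries. The endothelium markers summed to 55.6, 55.6 and 58.2 TPM in B6J, 82.1, 93.6 and 88.0 TPM in B6J.*Gtpbp1*-/- and 80.0, 103 and 109 TPM in B6J-*Gtpbp2*-/- libraries. *Cldn5* was the most abundant, and 3 of 3 were higher in all 6 mutant libraries. No marker of these 3 lists was at 0 in a library. For these lists and those that follow, the share of all genes that lie apart from B6J in this way was not counted.

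Other measures differed too. The oligodendrocyte markers summed to 7935, 6790 and 7882 TPM in B6J and 6483, 6589 and 5606 TPM in B6J.*Gtpbp1*-/- libraries. Of these 4 markers 2 were below B6J in all B6J.*Gtpbp1*-/- libraries, while B6J-*Gtpbp2*-/- libraries overlapped with B6J (9315, 7013 and 7488 TPM). The Purkinje cell markers summed to 4370, 4438 and 3889 TPM in B6J and 3675, 3868 and 3209 TPM in B6J-*Gtpbp2*-/- libraries. Of these 4 markers 2 were below B6J in all B6J-*Gtpbp2*-/- libraries. In all B6J.*Gtpbp1*-/- libraries 1 was below B6J, and the sums overlapped (4452, 3678 and 4677 TPM). The red blood cell markers summed to 3710, 2121 and 2789 TPM in B6J, 5378, 4645 and 5809 TPM in B6J.*Gtpbp1*-/- and 988, 4490 and 2629 TPM in B6J-*Gtpbp2*-/- libraries. *Hbb-bs* was the most abundant, and 3 of 3 were above B6J in all B6J.*Gtpbp1*-/- libraries, while B6J-*Gtpbp2*-/- libraries overlapped with B6J. Of 5 Bergmann glia and astrocyte markers, which summed to 1439 ± 124, 1522 ± 142 and 1457 ± 116 TPM with overlap, 2 were above and 1 below B6J in all B6J.*Gtpbp1*-/- libraries, and 1 above and 1 below in all B6J-*Gtpbp2*-/- libraries. The most abundant, *Slc1a3*, was lower, at 941, 1026 and 834 TPM in B6J, 797, 681 and 814 TPM in B6J.*Gtpbp1*-/- and 825, 789 and 688 TPM in B6J-*Gtpbp2*-/- libraries, while *Gfap* was higher, at 114, 99.8 and 112 TPM in B6J, 371, 259 and 284 TPM in B6J.*Gtpbp1*-/- and 232, 320 and 279 TPM in B6J-*Gtpbp2*-/- libraries. Transcripts of the mitochondrial genome held 20.1%, 19.4% and 20.5% of TPM in B6J, 14.2%, 17.2% and 16.5% in B6J.*Gtpbp1*-/- and 17.4%, 16.7% and 16.1% in B6J-*Gtpbp2*-/- libraries, lower in all 6 mutant libraries. Since TPM sums to a fixed total, a lower mitochondrial share leaves more TPM to all other transcripts of the mutants, and shares within a gene do not carry this shift. In bulk tissue, fewer cells of a type and less RNA per cell cannot be told apart, and the part of these cell types and of the mitochondrial share in the results on SR genes was not tested.

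Single libraries stood apart from their replicates, among mutants and controls alike. B6J-*Gtpbp2*-/- replicate 1 had 105 TPM of *Ttr*, a choroid plexus gene, against 2191 and 1430 TPM in the other libraries of that genotype, and 764 TPM of *Hbb-bs*, a haemoglobin gene of red blood cells, against 3446 and 2066 TPM. It had the highest nonproductive share of its genotype for 8 of the 10 SR genes. B6J.*Gtpbp1*-/- RNA replicate 1 had the lowest mitochondrial share of its genotype, 85.7 CPM of *Cirbp* against 46.8 and 35.4 CPM, and 219 CPM of *Rbm3* against 127 and 116 CPM. Its nonproductive share of *Srsf7* was 50.8% against 41.8% and 39.5%, and it had the highest share of its genotype for 5 of the 10 SR genes. In B6J-*Gtpbp2*-/- replicate 1 *Cirbp* was at 90.2 CPM against 48.9 and 45.2 CPM. B6J RNA replicate 3 had the highest nonproductive share of its genotype for 7 of the 10 SR genes. *Ttr* was lowest in this library among B6J RNA libraries (3249, 2135 and 440 TPM), and it varied as widely among B6J.*Gtpbp1*-/- libraries (3618, 2692 and 754 TPM).

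By TPM, nonproductive isoforms made up a large share of most SR genes in control cerebellum. The median over the 10 genes was 43.5% of the TPM of the gene in B6J mice, beside a median of 18.9% over the 8667 genes that express both classes. The order in B6J was *Srsf11* (74.4% ± 2.73), *Srsf9* (68.5% ± 6.51), *Srsf5* (62.4% ± 1.13), *Srsf1* (54.7% ± 2.01), *Srsf6* (44.0% ± 2.45), *Srsf2* (43.0% ± 2.14), *Srsf7* (40.8% ± 2.48), *Srsf3* (37.1% ± 3.05), *Srsf4* (23.0% ± 3.01) and *Srsf10* (21.5% ± 5.13) (SD, n = 3 for each). Neighbours such as *Srsf6*, *Srsf2* and *Srsf7*, or *Srsf4* and *Srsf10*, differed by less than their spread. *Srsf11* lay at the 96.6th percentile of those genes and *Srsf10* at the 53.9th.

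Protein_coding RNA followed another order. In B6J mice *Srsf1* (128 ± 12.6 TPM), *Srsf5* (122 ± 17.0 TPM) and *Srsf3* (120 ± 3.53 TPM) were the highest and did not differ beyond their spread (SD, n = 3). *Srsf2* (86.8 ± 6.77 TPM), *Srsf7* (83.1 ± 1.55 TPM) and *Srsf10* (80.8 ± 4.54 TPM) came next, followed by *Srsf6* (55.7 ± 7.04 TPM) and *Srsf11* (55.0 ± 0.302 TPM), which again overlapped. *Srsf4* (40.4 ± 0.953 TPM) and *Srsf9* (17.0 ± 2.24 TPM) were the lowest. TPM is scaled by transcript length, so these levels can be compared between genes.

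**Figure D1:**
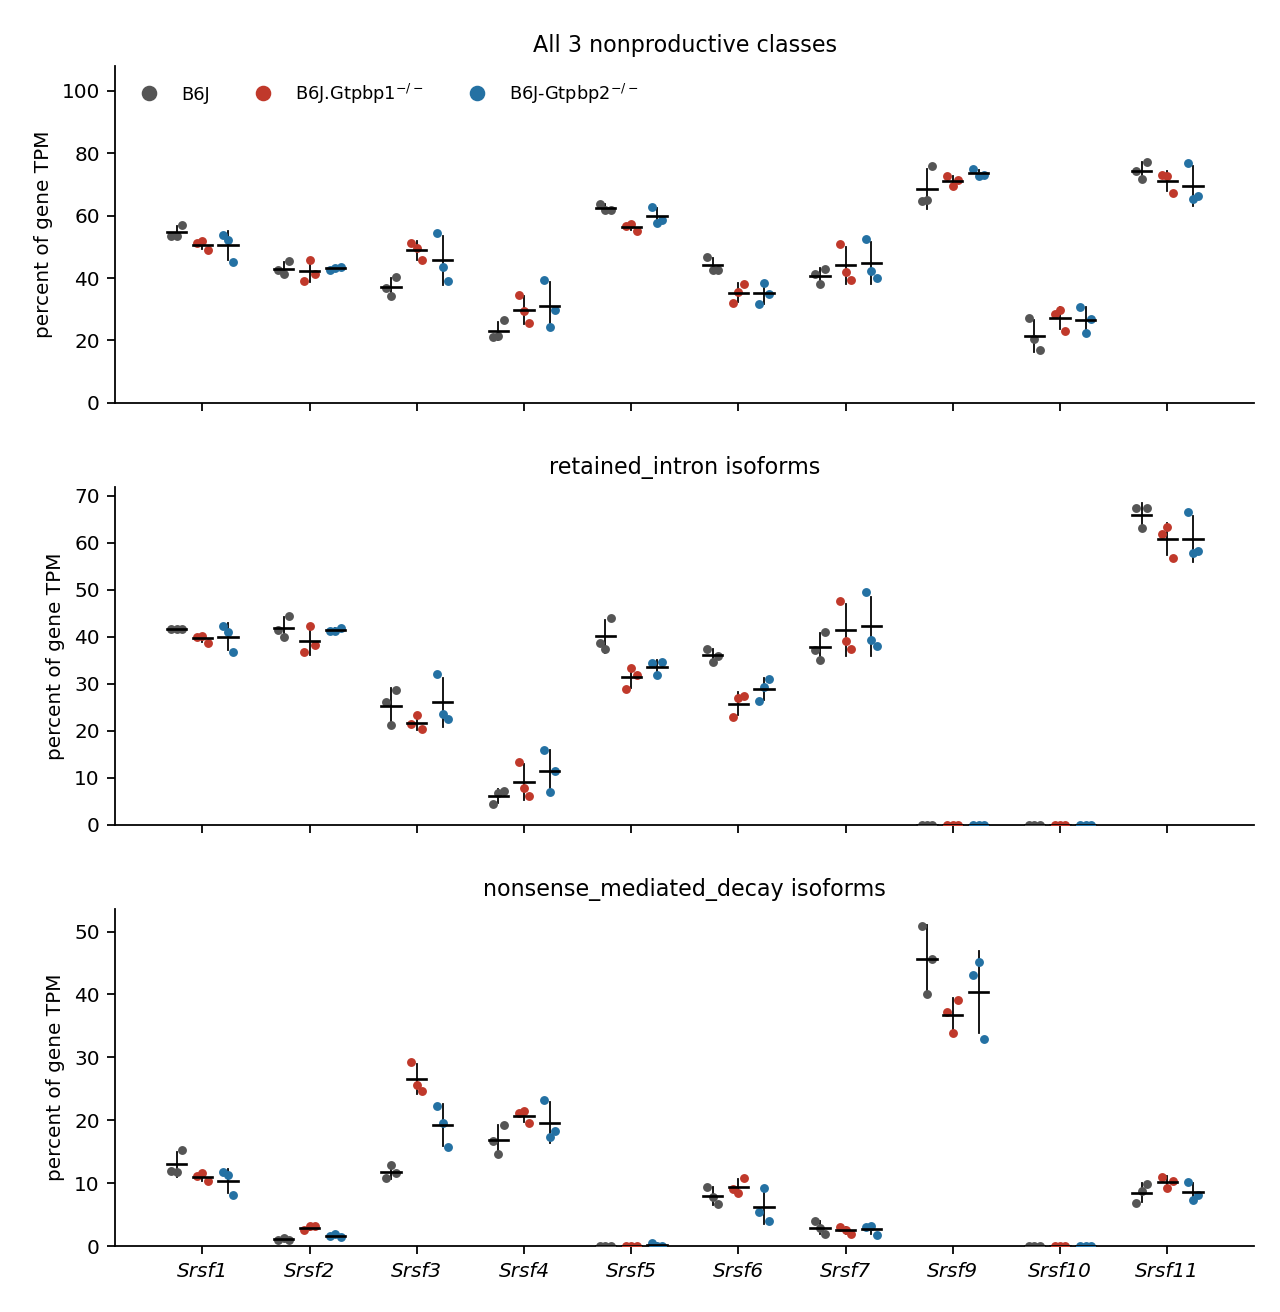
Share of the TPM of each SR gene, in percent, held by all nonproductive isoforms (top), retained_intron isoforms (middle) and NMD isoforms (bottom), with 1 point per RNA library, the mean as a line and the SD as a bar. NMD isoforms of Srsf3 took 10.9% to 12.9% in B6J, 24.7% to 29.2% in B6J.Gtpbp1-/- and 15.8% to 22.3% in B6J-Gtpbp2-/- libraries, and the points at 0 for Srsf9 and Srsf10 in the middle are genes with no annotated isoform of that class.

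The first comparison asks whether loss of *Gtpbp1* changed the amount or the isoform balance of SR gene RNA. Gene by gene, the amounts were close to those of B6J mice. Of the 10 genes *Srsf2* passed the test with edgeR, and it fell by 0.30 on the log2 scale. Among isoforms, the poison exon isoform of *Srsf3*, *Srsf3*-201, rose by a log2 fold change of 1.25, while the protein_coding isoform *Srsf3*-202 did not pass the test. The *Srsf2* call was lost under 10 of 14 alternatives and the *Srsf3*-201 call under 5 of 10.

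For whole genes, edgeR called 1 of 10 SR genes in B6J.*Gtpbp1*-/- mice, beside 13.8% of the 24577 genes tested. The log2 fold changes of the 10 genes were between -0.30 and 0.12, with a median of -0.03 beside 0.03 over all genes. In B6J-*Gtpbp2*-/- mice edgeR called 0 of 10, beside 8.63% of genes. At an unadjusted p under 0.05 were 0, beside 5585 of all 24859, and DESeq2 called 0, beside 3409. The log2 fold changes were between -0.19 and 0.13. Between the mutants edgeR called 0 of 10, beside 0.0595% of genes. At an unadjusted p under 0.05 were 0, beside 899 of all 25190, and DESeq2 called 0, beside 46.

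For the balance of isoforms, limma was fitted to the log2 ratio of nonproductive to protein_coding TPM of each gene. In B6J.*Gtpbp1*-/- mice limma called 0 of 10 SR genes, beside 0% of 8570 genes, and 1 (*Srsf3*) was at an unadjusted p under 0.05, beside 624 of all 8570. With loss of *Gtpbp2* limma called 0 of 10, beside 0.0233% of genes, and 1 (*Srsf6*) was at an unadjusted p under 0.05, beside 583 of all 8567. Between the mutants limma called 0 of 10, beside 0% of genes, with 0 at an unadjusted p under 0.05, beside 404 of all 8749. A missing call does not show that a ratio stayed the same.

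The same ratios were also described by whether the 3 libraries of a mutant lay wholly to one side of the 3 B6J libraries. In B6J.*Gtpbp1*-/- mice this held for 4 of 10 SR genes, beside 14.6% of all genes: *Srsf3* was higher, and *Srsf1*, *Srsf5* and *Srsf6* were lower. With loss of *Gtpbp2* it held for 1 of 10, *Srsf6*, which was lower, beside 14.1% of all genes on either side and 4.07% on the lower side.

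Each nonproductive class was then set against protein_coding alone. The retained_intron ratio could be fitted for 8 SR genes and limma called 0 of 8 in both mutants, beside 0.0167% of genes for *Gtpbp1* and 0.0670% for *Gtpbp2*. At an unadjusted p under 0.05 were 2 (*Srsf5* and *Srsf6*) in B6J.*Gtpbp1*-/- and 1 (*Srsf6*) in B6J-*Gtpbp2*-/- mice, beside 458 of 5979 and 408 of 5969 genes. All 3 libraries of B6J.*Gtpbp1*-/- mice lay below B6J for 3 of 8 (*Srsf1*, *Srsf5* and *Srsf6*), beside 15.4% of genes on either side and 5.02% below, and those of B6J-*Gtpbp2*-/- mice for 2 of 8 (*Srsf5* and *Srsf6*), beside 14.5% on either side and 3.43% below. The largest difference for *Gtpbp2* went the other way with overlap: for *Srsf4* the log2 ratio was higher by 0.63 (SE 0.431, limma adjusted p = 0.722) and by 1.00 (SE 0.450, limma adjusted p = 0.724). For *Srsf3* and *Srsf7* it was higher by 0.09 and 0.21 with loss of *Gtpbp1* and by 0.25 and 0.26 with loss of *Gtpbp2*.

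For the NMD ratio limma called 0 of 8 SR genes in both mutants, beside 0% of genes in each. At an unadjusted p under 0.05 were 2 (*Srsf2* and *Srsf3*) in B6J.*Gtpbp1*-/- and 1 (*Srsf3*) in B6J-*Gtpbp2*-/- mice, beside 158 of 2420 and 159 of 2410 genes. B6J.*Gtpbp1*-/- libraries lay apart from B6J for 3 of 8 genes, *Srsf2* and *Srsf3* above and *Srsf1* below, beside 15.1% of genes, and B6J-*Gtpbp2*-/- libraries for 2 of 8, *Srsf2* and *Srsf3*, both above, beside 13.9% on either side and 9.17% above. For the processed_transcript ratio limma called 0 of 4 SR genes in B6J.*Gtpbp1*-/- and 0 of 3 in B6J-*Gtpbp2*-/- mice, beside 0% of genes in each. At an unadjusted p under 0.05 were 1 (*Srsf3*) and 0, beside 273 of 4084 and 282 of 4103 genes.

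Single isoforms were tested with edgeR on their estimated counts. In B6J.*Gtpbp1*-/- mice 1 of 69 tested SR isoforms was called, *Srsf3*-201, beside 0.715% of 67667 transcripts. At an unadjusted p under 0.05 were 14, beside 7466 of all 67667, and DESeq2 called 7, beside 5372 of all 67667 (*Srsf3*-201, *Srsf6*-203, *Srsf6*-204, *Srsf1*-201, *Srsf1*-206, *Srsf7*-205 and *Srsf2*-204). In B6J-*Gtpbp2*-/- mice edgeR called 0 of 70, beside 0.144% of transcripts. At an unadjusted p under 0.05 were 7, beside 6521 of all 68960, and DESeq2 called 1, beside 2736. Between the mutants edgeR called 0 of 72, beside 0.00426% of transcripts, with 3 (*Srsf2*-204, *Srsf5*-203 and *Srsf3*-201) at an unadjusted p under 0.05, beside 2121 of all 70389, and DESeq2 called 1, beside 223. *Srsf3*-201 was the isoform that DESeq2 called in all 3 comparisons. For some isoforms below, all mutant libraries are said to lie above or below B6J by TPM. How many of all SR isoforms or of all transcripts do so was not counted. The lower mitochondrial share of the mutants also raises the TPM of other transcripts.

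*Srsf3* encodes a small SR protein that shuttles between nucleus and cytoplasm, takes part in mRNA export and 3′ end processing, and includes a poison exon in its own transcript. The gene (ENSMUSG00000071172.13) lies at chr17:29032628-29043373 on the + strand of GRCm38. *Srsf3*-201, its NMD isoform, holds an exon of 456 bases at chr17:29039454-29039909 that *Srsf3*-202 lacks, and its reading frame ends inside this exon at the TGA at chr17:29039485-29039487, which is 548 bases upstream of the last exon junction.

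*Srsf3*-201 was at 20, 23.9 and 23.7 TPM in B6J libraries, 57.7, 59.7 and 57.0 TPM in B6J.*Gtpbp1*-/- libraries and 37.6, 45.8 and 41.5 TPM in B6J-*Gtpbp2*-/- libraries. Every mutant library lay above every B6J library, and every B6J.*Gtpbp1*-/- library above every B6J-*Gtpbp2*-/- library. In B6J.*Gtpbp1*-/- mice it rose (log2 fold change 1.25, SE 0.106, edgeR adjusted p = 0.0119), and stood at rank 72 by p of all transcripts tested. In B6J-*Gtpbp2*-/- mice its log2 fold change was 0.77 (SE 0.13, unadjusted p = 0.000757, edgeR adjusted p = 0.110), which missed the threshold. DESeq2 called it in B6J.*Gtpbp1*-/- mice too (1.24, adjusted p = 9.52e-30). Between the mutants the log2 fold change was 0.49 (SE 0.10, unadjusted p = 0.00201, edgeR adjusted p = 1.00), and with DESeq2 it was 0.50 (adjusted p = 0.00960), so the 2 tools part on this difference. They part on B6J-*Gtpbp2*-/- against B6J too, where DESeq2 gave 0.75 (adjusted p = 5.63e-05). The edgeR call for B6J.*Gtpbp1*-/- mice was lost without B6J.*Gtpbp1*-/- replicate 1 (log2 fold change 1.26, adjusted p = 0.0642), replicate 2 (1.23, adjusted p = 0.0835) or replicate 3 (1.27, adjusted p = 0.0595) and without B6J replicate 1 (1.16, adjusted p = 0.0515), with nearly the same fold in each. It was also lost with a replicate block (1.26, adjusted p = 0.184). Of all 67667 transcripts edgeR called 484 in the main fit, 0 with the block and between 21 and 161 without 1 library.

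The protein_coding isoform did not follow. *Srsf3*-202 was at 116, 122 and 122 TPM in B6J, 96.3, 117 and 125 TPM in B6J.*Gtpbp1*-/- and 76.7, 132 and 160 TPM in B6J-*Gtpbp2*-/- libraries, so the genotypes overlapped and B6J-*Gtpbp2*-/- mice spread the most. NMD isoforms held 11.8% ± 1.02 of *Srsf3* TPM in B6J mice, 26.5% ± 2.38 with loss of *Gtpbp1* and 19.2% ± 3.3 with loss of *Gtpbp2* (SD, n = 3). The log2 ratio of NMD to protein_coding TPM was higher by 1.46 (SE 0.268, unadjusted p = 0.00138, limma adjusted p = 0.370) and by 0.91 (SE 0.336, limma adjusted p = 0.742). The first stood at rank 9 by p of 2420 genes, and neither passed the test. Between the mutants limma called 0 of 8 SR genes for the NMD ratio, beside 0% of genes, with 0 at an unadjusted p under 0.05, beside 115 of 2473 genes. For *Srsf3* the difference was 0.55 (SE 0.297, limma adjusted p = 0.979).

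The retained introns of *Srsf3* did not follow the poison exon in B6J.*Gtpbp1*-/- mice. *Srsf3*-204, which keeps introns 3 and 4 of 5, was at 21.8 ± 2.76, 22.7 ± 2.82 and 26.8 ± 2.65 TPM in the 3 genotypes, B6J first and *Gtpbp2* last (SD, n = 3), and *Srsf3*-205 at 26.2 ± 7.63, 24.4 ± 5.37 and 28.2 ± 0.579 TPM. For *Srsf3*-204 all B6J-*Gtpbp2*-/- libraries (25.4, 25.1 and 29.9 TPM) were above B6J (19.6, 20.8 and 24.9 TPM), without passing the test. As a share of *Srsf3* TPM it overlapped, at 15.1%, 10.8% and 11.4% against 10.7%, 11.3% and 12.2%. The processed_transcript isoforms of *Srsf3* were listed at 0 in all 3 B6J libraries and at 1.18, 1.33 and 1.39 TPM in B6J.*Gtpbp1*-/- libraries, and at 0, 0.762 and 2.14 TPM in B6J-*Gtpbp2*-/- libraries, so they stayed below 3 TPM. Their ratio to protein_coding in B6J.*Gtpbp1*-/- mice did not pass the test (limma adjusted p = 0.328).

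**Figure D2:**
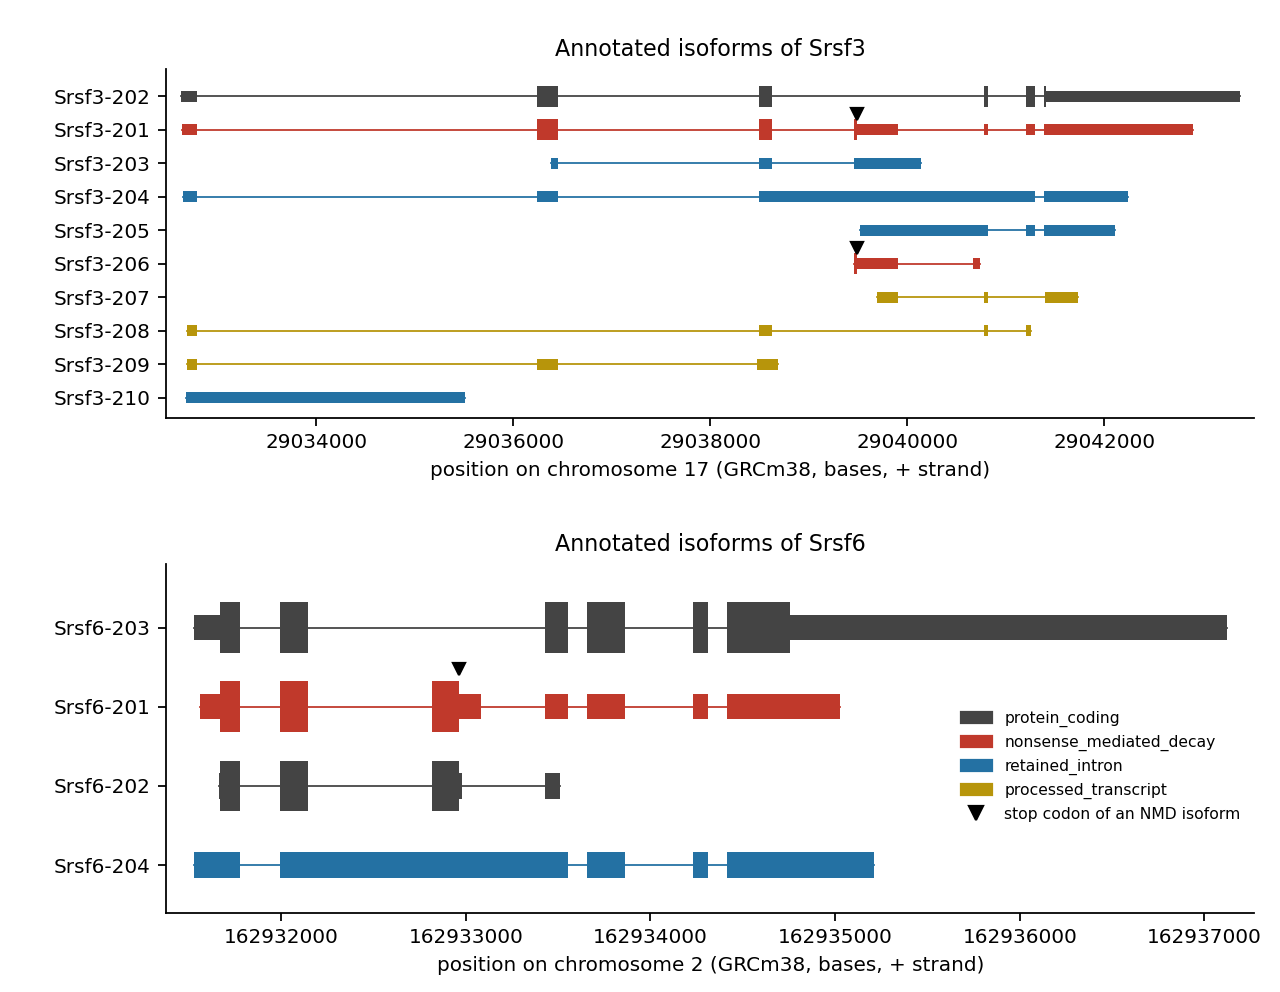
Annotated isoforms of Srsf3 and Srsf6 drawn to scale on GRCm38, with the position in bases on the x axis, tall boxes for coding sequence, low boxes for other exon sequence and 1 colour per class. A triangle marks the stop codon of each NMD isoform: that of Srsf3-201 lies at chr17:29039485-29039487 in its poison exon, and Srsf6-204 keeps intron 2 as exon sequence.

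Each poison exon holds an early stop codon in the reading frame. The coding part of the poison exon is shown for the NMD isoform of *Srsf3* that rose, for that of *Srsf7*, which shares its role in export, and for *Srsf6*, whose retained intron holds the same exon. Each is the reference sequence of GRCm38 from the first base of the exon to its stop codon, 5′ to 3′ on the strand of the gene, with the stop codon in capitals: *Srsf3*-201 at chr17:29039454-29039487 (+ strand, 34 bases), *Srsf7*-203 at chr17:80205054-80205081 (- strand, 28 bases) and *Srsf6*-201 at chr2:162932815-162932966 (+ strand, 152 bases).
Srsf3-201: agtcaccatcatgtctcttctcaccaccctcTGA
Srsf7-203: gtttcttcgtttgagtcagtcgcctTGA
Srsf6-201: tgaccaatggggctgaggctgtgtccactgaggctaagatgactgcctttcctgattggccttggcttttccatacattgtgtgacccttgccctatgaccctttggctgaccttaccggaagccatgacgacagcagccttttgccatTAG

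*Srsf7* shares with *Srsf3* the role of an export adaptor and carries a zinc knuckle beside its RNA recognition motif. Its NMD isoform *Srsf7*-203, with a poison exon of 460 bases at chr17:80204622-80205081, was at 4.18 ± 1.34, 4.04 ± 0.708 and 4.27 ± 0.938 TPM in the 3 genotypes, in the same order (SD, n = 3). The isoforms that keep the whole intron around this exon (intron 3 of 7, 874 bases at chr17:80204388-80205261), *Srsf7*-206 and *Srsf7*-207, summed to 31.6, 32.9 and 39.0 TPM in B6J, 42.4, 42.8 and 42.7 TPM in B6J.*Gtpbp1*-/- and 45.7, 39.5 and 44.0 TPM in B6J-*Gtpbp2*-/- libraries. This level was above B6J in all 6 mutant libraries by TPM, which the mitochondrial share also moves. As a share of *Srsf7* TPM these isoforms overlapped, at 22.8%, 24.3% and 26.4% in B6J, 29.1%, 25.9% and 26.8% in B6J.*Gtpbp1*-/- and 31.4%, 25.1% and 24.8% in B6J-*Gtpbp2*-/- libraries. The ratio of retained_intron to protein_coding TPM had log2 differences of 0.21 and 0.26 and did not pass the test (limma adjusted p = 0.840 in each).

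*Srsf6*, *Srsf5* and *Srsf4* are closely related SR proteins with a pair of RNA recognition motifs, known for effects on the choice of alternative exons. For *Srsf6* the protein_coding isoform *Srsf6*-203 was at 50.2, 53.2 and 63.6 TPM in B6J, 79.2, 77.8 and 72.1 TPM in B6J.*Gtpbp1*-/- and 79.7, 73.9 and 79.2 TPM in B6J-*Gtpbp2*-/- libraries. Every mutant library was above every B6J library. The log2 fold changes were 0.35 (SE 0.108, edgeR adjusted p = 0.274) and 0.37 (SE 0.109, edgeR adjusted p = 0.322). Neither passed the test with edgeR, while DESeq2 called the first (log2 fold change 0.34, adjusted p = 0.0343).

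The retained_intron share of *Srsf6* was 37.4%, 34.7% and 35.9% in B6J, 23.0%, 27.0% and 27.3% in B6J.*Gtpbp1*-/- and 26.3%, 29.2% and 31% in B6J-*Gtpbp2*-/- libraries. It was lower in all 6 mutant libraries. It comes from 1 isoform, *Srsf6*-204, which keeps intron 2 of 5 (1283 bases, chr2:162932143-162933425) and with it the poison exon of 268 bases that *Srsf6*-201 splices in. The log2 ratio of retained_intron to protein_coding TPM was lower by 0.69 in B6J.*Gtpbp1*-/- mice (-0.69, SE 0.229, limma adjusted p = 0.630) and by 0.54 in B6J-*Gtpbp2*-/- mice (-0.54, SE 0.219, limma adjusted p = 0.722). The level of *Srsf6*-204 itself was 35.8 ± 3.85, 30.5 ± 3.29 and 34.5 ± 3.59 TPM in the 3 genotypes (SD, n = 3). For *Gtpbp1* its log2 fold change was -0.34 (SE 0.118, unadjusted p = 0.0251, edgeR adjusted p = 0.342), and DESeq2 called it (-0.36, adjusted p = 0.0485). The poison exon isoform *Srsf6*-201 was at 7.90 ± 0.919, 11.2 ± 1.23 and 7.47 ± 3.23 TPM. Its B6J.*Gtpbp1*-/- libraries (10.6, 10.4 and 12.6 TPM) were all above B6J (8.96, 7.33 and 7.40 TPM). The log2 ratio of NMD to protein_coding TPM differed by 0.03 there (limma adjusted p = 0.982).

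*Srsf5* had the larger RNA level of these genes. Its retained_intron isoforms took 38.7%, 37.3% and 44.0% of its TPM in B6J, 28.9%, 33.3% and 31.8% in B6J.*Gtpbp1*-/- and 34.4%, 31.9% and 34.6% in B6J-*Gtpbp2*-/- libraries. Mutant libraries were again all below B6J libraries, and the log2 ratios to protein_coding were lower by 0.57 (-0.57, SE 0.205, limma adjusted p = 0.634) and 0.35 (-0.35, SE 0.206, limma adjusted p = 0.760). Most of this class was *Srsf5*-212, which keeps intron 5 of 7 (1229 bases, chr12:80947866-80949094) and was at 121 ± 25.9, 110 ± 11.6 and 112 ± 11.5 TPM (SD, n = 3). The processed_transcript isoform *Srsf5*-211 went the other way, at 69.9, 63.3 and 59.7 TPM in B6J, 110, 88.6 and 77.8 TPM in B6J.*Gtpbp1*-/- and 92.4, 82.9 and 75.6 TPM in B6J-*Gtpbp2*-/- libraries, above B6J in all 6 (log2 fold changes 0.26 and 0.23, edgeR adjusted p = 0.726 and 0.804). Protein_coding *Srsf5*-201 was at 62.0, 55.2 and 73.7 TPM in B6J, 89.6, 103 and 83.3 TPM in B6J.*Gtpbp1*-/- and 60.6, 80.0 and 84.3 TPM in B6J-*Gtpbp2*-/- libraries, with B6J.*Gtpbp1*-/- above B6J throughout (log2 fold change 0.41, SE 0.142, edgeR adjusted p = 0.344). *Srsf5*-211 and *Srsf5*-212 hold no short sequence word that the other isoforms of the gene lack. For *Srsf5*-201 such words are 1.34% of its sequence words. How reads are split between these isoforms is therefore uncertain, and its part in their opposed shifts was not tested.

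*Srsf4* had a nonproductive share of 23.0% ± 3.01 in B6J mice, 29.8% ± 4.48 with loss of *Gtpbp1* and 31.1% ± 7.56 with loss of *Gtpbp2* (SD, n = 3), and the libraries overlapped. Its retained_intron share was 6.10% ± 1.41, 9.05% ± 3.85 and 11.4% ± 4.48, with overlap. Its NMD isoform *Srsf4*-203 was at 1.36, 2.37 and 1.75 TPM in B6J, 4.50, 3.68 and 3.35 TPM in B6J.*Gtpbp1*-/- and 4.69, 2.98 and 3.46 TPM in B6J-*Gtpbp2*-/- libraries, so the mutants were higher in every library, at a low level and without passing the test. *Srsf4*-204, the more abundant NMD isoform, overlapped between genotypes, at 7.09 ± 1.82, 8.02 ± 0.665 and 6.97 ± 0.890 TPM.

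*Srsf1*, the founding SR protein, acts in constitutive and alternative splicing and also in mRNA export and translation. Its nonproductive share was 53.6%, 53.5% and 57.0% in B6J, 51.2%, 51.8% and 49.1% in B6J.*Gtpbp1*-/- and 53.9%, 52.3% and 45.0% in B6J-*Gtpbp2*-/- libraries. B6J.*Gtpbp1*-/- libraries lay below B6J, by little, and B6J-*Gtpbp2*-/- libraries overlapped with it (log2 ratios -0.23 and -0.25, limma adjusted p = 0.80 and 0.835). The retained_intron isoform *Srsf1*-203 was at 107 ± 18.7, 95.1 ± 10.1 and 92.5 ± 7.39 TPM, the protein_coding isoform *Srsf1*-205 at 61.1 ± 10, 67.3 ± 5.09 and 64.6 ± 7.59 TPM, and the NMD isoform *Srsf1*-204 at 37.5 ± 11.3, 28.0 ± 3.34 and 26.5 ± 5.26 TPM (SD, n = 3). Another protein_coding isoform, *Srsf1*-201, was lower in the mutants, at 65.3 ± 3.12, 58.1 ± 6.29 and 59.5 ± 3.55 TPM. Its log2 fold changes were -0.28 and -0.25 (edgeR adjusted p = 0.357 and 0.433), and DESeq2 called the first (adjusted p = 0.0472). Neither *Srsf1*-203 nor *Srsf1*-204 was above B6J in the mutants, unlike *Srsf3*-201.

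*Srsf9*, a close relative of *Srsf1*, has no retained_intron isoform. Its NMD isoform *Srsf9*-205 was at 24.9 ± 3.13, 23.1 ± 0.409 and 24.8 ± 3.62 TPM (SD, n = 3) and exceeded its protein_coding isoform *Srsf9*-201, at 16.6 ± 1.82, 17.5 ± 2.47 and 15.3 ± 0.688 TPM. Its processed_transcript isoform *Srsf9*-202 was at 6.83, 6.81 and 10.3 TPM in B6J, 15.2, 10.5 and 10.7 TPM in B6J.*Gtpbp1*-/- and 14.2, 14.0 and 16.3 TPM in B6J-*Gtpbp2*-/- libraries. All mutant libraries were above B6J, and in B6J-*Gtpbp2*-/- mice the log2 fold change was 0.77 (SE 0.245, edgeR adjusted p = 0.357).

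*Srsf2*, which stays in the nucleus and marks nuclear speckles, was the SR gene whose RNA was called. Its RNA was 121, 115 and 144 CPM in B6J, 107, 103 and 98.0 CPM in B6J.*Gtpbp1*-/- and 121, 103 and 111 CPM in B6J-*Gtpbp2*-/- libraries. B6J.*Gtpbp1*-/- libraries were all below B6J libraries, by a log2 fold change of -0.30 (SE 0.090, edgeR adjusted p = 0.0411), and in B6J-*Gtpbp2*-/- mice the log2 fold change was -0.18 (SE 0.0991, edgeR adjusted p = 0.314). The difference between the mutants was not called (log2 fold change -0.12, SE 0.0792, edgeR adjusted p = 1.00). The call lay near the threshold: it was lost with upper quartile normalisation, an offset for transcript length, protein_coding transcripts alone, sex as a covariate or a replicate block, and edgeR adjusted p was between 0.0906 and 0.135 with these. It was kept with DESeq2 (adjusted p = 0.0168), with no filter (edgeR adjusted p = 0.00858), with all 9 RNA libraries in one model (edgeR adjusted p = 0.0467) and without B6J replicate 2 (-0.37, edgeR adjusted p = 0.0338). It was also lost without B6J replicate 1 (log2 fold change -0.33, edgeR adjusted p = 0.0750), B6J replicate 3 (-0.20, adjusted p = 0.0998) or B6J.*Gtpbp1*-/- replicate 1 (-0.33, adjusted p = 0.0696), replicate 2 (-0.31, adjusted p = 0.127) or replicate 3 (-0.27, adjusted p = 0.125). Over all 14 alternatives the log2 fold change was between -0.37 and -0.20.

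Isoforms of *Srsf2* differ by splicing downstream of the stop codon. *Srsf2*-203 keeps intron 2 of 2 (1059 bases, chr11:116850962-116852020), which follows the stop codon at chr11:116852028-116852030, and was at 64.4 ± 11.1, 55.0 ± 4.77 and 62.3 ± 4.31 TPM beside 84.1 ± 6.80, 77.1 ± 5.51 and 81.7 ± 6.73 TPM of protein_coding *Srsf2*-201 (SD, n = 3). *Srsf2*-202, an NMD isoform, splices in an exon of 104 bases there, so that the normal stop codon lies 217 bases upstream of the last junction. It was at 1.6, 1.80 and 1.72 TPM in B6J, 2.78, 2.75 and 2.75 TPM in B6J.*Gtpbp1*-/- and 2.57, 2.73 and 1.98 TPM in B6J-*Gtpbp2*-/- libraries, above B6J in all 6. *Srsf2*-206, which Gencode calls protein_coding although it holds the same exon, was at 2.71 ± 0.165, 4.43 ± 0.0306 and 3.86 ± 0.610 TPM. Neither *Srsf2*-202 nor *Srsf2*-206 has a 31-base word of its own, so how reads are split between these 2 isoforms is uncertain. The NMD class of the gene also takes in *Srsf2*-204, which lacks that exon and has no word of its own either. It was listed at 0 in all B6J libraries, at 0.879, 1.78 and 1.6 TPM in B6J.*Gtpbp1*-/- libraries and at 0, 0 and 0.278 TPM in B6J-*Gtpbp2*-/- libraries. The log2 ratio of NMD to protein_coding TPM, with both isoforms, was higher by 1.33 (SE 0.499, limma adjusted p = 0.722) and by 0.56 (SE 0.522, limma adjusted p = 0.844), and so is not a measure of the 104-base exon alone.

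*Srsf10* and *Srsf11* stand apart from the classical SR proteins. *Srsf10* represses splicing when it loses its phosphates, and *Srsf11* is known for the inclusion of neuronal microexons. *Srsf10* has no annotated retained_intron or NMD isoform, and its processed_transcript share was 21.5% ± 5.13, 27.1% ± 3.48 and 26.7% ± 4.19 (SD, n = 3), with overlap. Its most abundant isoform, protein_coding *Srsf10*-204, was at 41.0 ± 8.29, 46.5 ± 4.85 and 42.0 ± 3.27 TPM. *Srsf11* had the highest nonproductive share, 74.4% ± 2.73, 70.9% ± 3.17 and 69.4% ± 6.30, most of it in retained_intron isoforms (65.9%, 60.7% and 60.8%). Its protein_coding isoform *Srsf11*-202 was at 41.6, 40.4 and 31.2 TPM in B6J, 48.4, 51.4 and 58.2 TPM in B6J.*Gtpbp1*-/- and 45.2, 59.5 and 57.1 TPM in B6J-*Gtpbp2*-/- libraries, above B6J in every mutant library (log2 fold changes 0.36 and 0.40, SE 0.133 and 0.161, edgeR adjusted p = 0.385 and 0.509). Another protein_coding isoform, *Srsf11*-204, went the other way, at 9.16, 7.69 and 18.2 TPM in B6J, 6.31, 6.64 and 7.39 TPM in B6J.*Gtpbp1*-/- and 4.48, 6.74 and 9.16 TPM in B6J-*Gtpbp2*-/- libraries with overlap for *Gtpbp2* (log2 fold changes -0.91 and -0.90, SE 0.337 and 0.412, edgeR adjusted p = 0.383 and 0.590). The first depends on B6J replicate 3 and was -0.43 without it. The second rests on the same B6J library, and no value without it is given. The poison exon isoform *Srsf11*-210 (stop codon at chr3:158024209-158024211) was at 15.0 ± 7.34, 18.9 ± 2.80 and 15.2 ± 3.72 TPM.

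**Figure D3:**
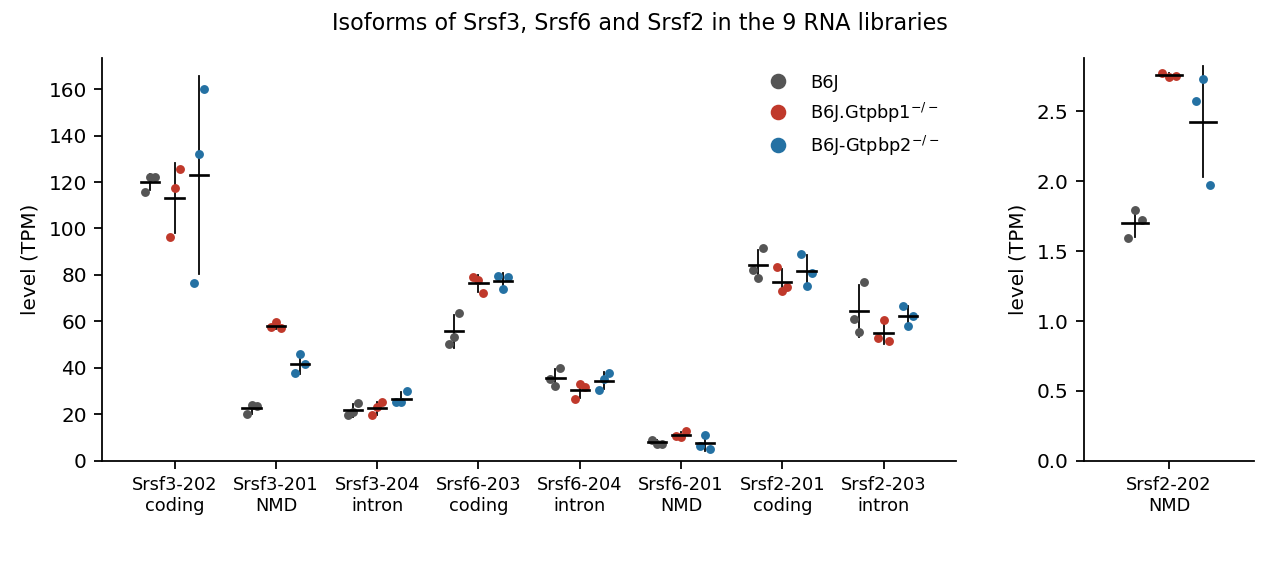
TPM of isoforms of Srsf3, Srsf6 and Srsf2 in the 9 RNA libraries, with Srsf2-202 on a scale of its own at the right, 1 point per library, the mean as a line and the SD as a bar. Srsf3-201 lies between 20 and 23.9 TPM in B6J, between 57.0 and 59.7 TPM in B6J.Gtpbp1-/- and between 37.6 and 45.8 TPM in B6J-Gtpbp2-/- libraries.

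The annotated structures set how far these isoforms can be told apart. Of the 26 retained_intron isoforms 8 hold a whole intron of the reference isoform of their gene, and of the 15 NMD isoforms 11 hold an extra exon. The median share of 31-base words found in no other isoform of the same gene was 13.0% for retained_intron, 3.12% for NMD, 4.26% for processed_transcript and 2.93% for protein_coding isoforms. Transcripts of other genes were not compared. *Srsf3*-201 had 0 such words. The retained_intron isoform *Srsf3*-204 holds its whole poison exon as intron sequence and *Srsf3*-205 holds most of it, both at a mean over 20 TPM in each genotype, so the level of *Srsf3*-201 rests on how shared reads are divided.

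Ribosome footprints on the coding sequence showed no called SR gene. In B6J.*Gtpbp1*-/- mice edgeR called 0 of 10, beside 0.745% of 13956 genes. At an unadjusted p under 0.05 were 0, beside 1763 of all 13956, and DESeq2 called 0, beside 406. In B6J-*Gtpbp2*-/- mice edgeR called 0 of 10, beside 2.94% of genes. At an unadjusted p under 0.05 was 1 (*Srsf5*), beside 2355 of all 13797, and DESeq2 called 0, beside 655. Between the mutants edgeR called 0 of 10, beside 0% of genes. At an unadjusted p under 0.05 were 0, beside 1523 of all 14142, and DESeq2 called 0, beside 100. The log2 fold changes of the 10 genes were between -0.16 and 0.31 for *Gtpbp1* and between -0.35 and 0.58 for *Gtpbp2*.

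Footprints on *Srsf3* were 34.5, 43.2 and 48.6 CPM in B6J, 52.3, 33.7 and 27.4 CPM in B6J.*Gtpbp1*-/- and 36.7, 31.1 and 32.2 CPM in B6J-*Gtpbp2*-/- libraries. The genotypes overlapped (log2 fold changes -0.16 and -0.35, SE 0.254 and 0.193, edgeR adjusted p = 0.861 and 0.383). Footprints on *Srsf5* were 49.2, 45.8 and 60.1 CPM in B6J, 79.4, 61.0 and 52.6 CPM in B6J.*Gtpbp1*-/- and 103, 51.4 and 78.9 CPM in B6J-*Gtpbp2*-/- libraries (log2 fold changes 0.31 and 0.58, SE 0.212 and 0.226, edgeR adjusted p = 0.581 and 0.201). The second was 0.33 without B6J-*Gtpbp2*-/- replicate 1 and 0.81 without replicate 2. Replicate 1 was the highest of its genotype for 8 of 10 genes in B6J.*Gtpbp1*-/- and for 7 of 10 in B6J-*Gtpbp2*-/- libraries.

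Translational efficiency (TE), the change of footprints relative to RNA, was tested as an interaction. For B6J.*Gtpbp1*-/- mice edgeR called 0 of 10 SR genes, beside 0% of 13086 genes. At an unadjusted p under 0.05 were 0, beside 1170 of all 13086, and DESeq2 called 0, beside 58. For B6J-*Gtpbp2*-/- mice edgeR called 0 of 10, beside 0.00773% of genes. At an unadjusted p under 0.05 were 2 (*Srsf5* and *Srsf9*), beside 1554 of all 12931, and DESeq2 called 0, beside 160. RNA counts take in nonproductive isoforms, while footprints count only the coding sequence.

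**Figure D4:**
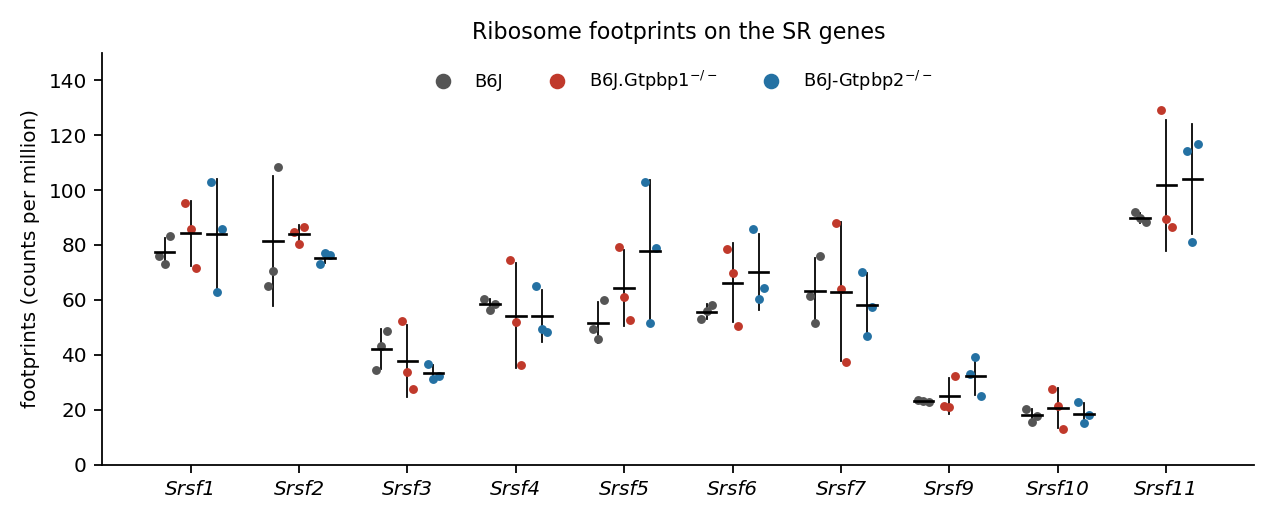
Footprints on the coding sequence of each SR gene, in CPM after TMM normalisation, with 1 point per library, the mean as a line and the SD as a bar. Srsf3 lies between 27.4 and 52.3 CPM over the 9 libraries.

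SR coding sequences hold many AGA codons, the codon read by the tRNA that is scarce in these mice. The median over the 10 genes was 5.0% of codons, beside 1.11% over 21768 genes. *Srsf7* had 8.40% (99.8th percentile), *Srsf3* 6.71% (99.7th), *Srsf10* 6.01% and *Srsf5* 5.58%, while *Srsf9* had 1.80% (75.2nd) and *Srsf2* 2.26%. Arginine took 19.9% of codons in SR genes beside 5.35% in all genes, and AGA took 26.9% of arginine codons beside 22.2% (medians). The 2 measures did not go together in each gene: *Srsf2* had 24.0% arginine with AGA at 9.43% of arginine codons, and *Srsf11* 13.3% arginine with AGA at 35.3%. The deposited counts hold no position of a read within a gene, so occupancy at these codons was not tested.

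Genes around the SR proteins were taken from 5 lists. Among 20 further SR and SR-like proteins edgeR called 1 up and 0 down in B6J.*Gtpbp1*-/- mice, beside 13.8% of all genes, and 0 in B6J-*Gtpbp2*-/- mice, beside 8.63%. At an unadjusted p under 0.05 were 4 in each, beside 6464 of 24577 and 5585 of 24859 genes. The gene called was *Tra2b*, a splicing activator with its own poison exon, at 119 ± 2.36, 146 ± 8.85 and 147 ± 17.3 CPM in B6J, B6J.*Gtpbp1*-/- and B6J-*Gtpbp2*-/- mice (SD, n = 3; log2 fold change 0.29, SE 0.0730, edgeR adjusted p = 0.0190 for *Gtpbp1*).

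SR proteins work and travel under the control of kinases, phosphatases and import receptors. Of 15 such genes 3 rose and 3 fell in B6J.*Gtpbp1*-/- mice, beside 13.8% of all genes called, and 1 rose and 1 fell in B6J-*Gtpbp2*-/- mice, beside 8.63%. *Ppp1cc*, a catalytic subunit of protein phosphatase 1, was at 336 ± 11.3, 198 ± 11.3 and 187 ± 9.35 CPM (SD, n = 3) and fell in both (log2 fold changes -0.76 and -0.84, SE 0.0784 and 0.0792, edgeR adjusted p = 3.10e-05 and 0.000122). *Tnpo1*, an import receptor for hnRNP proteins, was at 126 ± 6.05, 206 ± 27.8 and 171 ± 22.5 CPM and rose in both (log2 fold changes 0.71 and 0.45, edgeR adjusted p = 0.000235 and 0.0166). *Tnpo3*, the import receptor for SR proteins, was at 84.8 ± 4.0, 105 ± 7.27 and 100 ± 10.5 CPM and rose in B6J.*Gtpbp1*-/- mice (log2 fold change 0.31, edgeR adjusted p = 0.0179). Of the kinases, *Dyrk1a* rose (0.38, edgeR adjusted p = 0.00560) and *Clk3* fell (-0.33, edgeR adjusted p = 0.0204) in B6J.*Gtpbp1*-/- mice.

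Of 12 splice site recognition partners, 2 rose and 1 fell in B6J.*Gtpbp1*-/- mice, beside 13.8% of all genes called. *Prpf8*, a core protein of the spliceosome, was at 275 ± 34.7, 390 ± 36.6 and 343 ± 40.2 CPM (log2 fold change 0.50, edgeR adjusted p = 0.00548 for *Gtpbp1*). *Snrnp70* of the U1 particle was at 315 ± 29.4, 256 ± 19.5 and 272 ± 15.8 CPM (log2 fold change -0.30, edgeR adjusted p = 0.0490). For *Gtpbp2* edgeR called 0 of 12 for RNA, beside 8.63% of all genes, with 4 at an unadjusted p under 0.05 beside 5585 of 24859 genes.

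Of 35 hnRNP proteins and other splicing factors that regulate their own transcripts, 5 rose and 6 fell in B6J.*Gtpbp1*-/- mice, beside 13.8% of all genes called, and 1 rose and 3 fell in B6J-*Gtpbp2*-/- mice, beside 8.63%. *Hnrnpa1*, a common repressor of exons, was at 211 ± 4.82, 153 ± 7.42 and 169 ± 11.1 CPM and fell in both (log2 fold changes -0.46 and -0.32, edgeR adjusted p = 0.000830 and 0.0244). *Ptbp3* was at 34.7 ± 0.466, 52.6 ± 5.67 and 51.8 ± 5.96 CPM and rose in both (log2 fold changes 0.60 and 0.58, edgeR adjusted p = 0.000846 and 0.00435). *Hnrnpdl* fell in both (log2 fold changes -0.48 and -0.37, edgeR adjusted p = 0.00222 and 0.0290). *Hnrnpl* and *Rbfox1* fell in B6J.*Gtpbp1*-/- mice (log2 fold changes -0.32 and -0.33, edgeR adjusted p = 0.00783 and 0.00891), and *Hnrnpa2b1* fell in B6J-*Gtpbp2*-/- mice (-0.43, edgeR adjusted p = 0.0292).

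Of 15 factors of nonsense-mediated decay, 0 rose and 1 fell in B6J.*Gtpbp1*-/- mice, beside 13.8% of all genes called. It was *Upf3a*, at 30.4 ± 2.91, 24.2 ± 1.13 and 23.7 ± 2.84 CPM (SD, n = 3; log2 fold change -0.33, edgeR adjusted p = 0.0483 for *Gtpbp1*). For *Gtpbp2* edgeR called 0 of 15, beside 8.63% of all genes, with 4 at an unadjusted p under 0.05 beside 5585 of 24859 genes.

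For footprints in B6J-*Gtpbp2*-/- mice edgeR called 2 of 35 hnRNP proteins and other splicing factors and 1 of 11 splice site recognition partners, all lower, beside 406 of all 13797 genes (2.94%). In the other lists it called 0 of 20, 0 of 14 and 0 of 15. *Rbfox3*, a splicing factor of mature neurons, was at 211 ± 18.5, 165 ± 10.1 and 112 ± 19.9 CPM of footprints (SD, n = 3; log2 fold change -0.93, edgeR adjusted p = 0.00702 for *Gtpbp2*). *Rbfox1* was at 196 ± 1.71, 161 ± 15.4 and 123 ± 0.537 CPM (log2 fold change -0.68, edgeR adjusted p = 0.0158), and *Snrpa* of the U1 particle at 38.7 ± 9.94, 40.8 ± 0.666 and 20.7 ± 2.98 CPM (log2 fold change -0.91, edgeR adjusted p = 0.0433).

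The isoform ratio of the SR genes, standardised and averaged, was highest in B6J-*Gtpbp2*-/- replicate 1. Over the 9 RNA libraries, among 8667 genes and outside the 10, the ratios most like it were those of *Tra2a* (r = 0.981), *Klhdc10* (r = 0.962), *Tars* (r = 0.959), *Crtc2* (r = 0.941) and *Eif2ak2* (r = 0.941). The r that the best of so many unrelated genes would reach was not tested. The SR genes themselves had r between -0.30 (*Srsf6*) and 0.82 (*Srsf11*), so they did not vary as one. Each SR gene is part of the mean it is compared with, which raises its r, while the outside genes are not.

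Over the whole library, nonproductive isoforms held 12.2%, 11.3% and 12.8% of TPM in B6J, 13.2%, 13.1% and 12.7% in B6J.*Gtpbp1*-/- and 13.6%, 12.8% and 12.6% in B6J-*Gtpbp2*-/- libraries, and the genotypes overlapped. The exact permutation test gave p = 0.20 for each mutant against B6J and p = 1.00 between the mutants, where 0.10 is the smallest p that 3 against 3 libraries can give. NMD isoforms alone held 2.1%, 2.05% and 2.2% of TPM in B6J, 2.32%, 2.25% and 2.23% in B6J.*Gtpbp1*-/- and 2.30%, 2.22% and 2.25% in B6J-*Gtpbp2*-/- libraries. All 6 mutant libraries were above B6J, and the exact permutation test gave p = 0.10 for each mutant, the smallest possible. For processed_transcript p was 0.10 and 0.20, with B6J.*Gtpbp1*-/- libraries (4.49%, 4.33% and 4.32%) above B6J (4.10%, 3.87% and 4.23%), and for retained_intron it was 0.20 and 0.30, with overlap. Within protein-coding genes and without the mitochondrial genome the p for NMD was 0.50 and 0.30, and with estimated counts in place of TPM 0.40 in each.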

How the data were processed

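RNA-seq and ribosome profiling of cerebellum were compared between 3 genotypes with 3 mice each. For RNA the authors deposited estimated counts and TPM from kallisto 0.42.4 against Gencode M20. For footprints the authors deposited counts on coding sequence after Bowtie2 2.2.3 removal of rRNA and HISAT2 2.1.0 alignment to mm10. RNA libraries held a median of 49294194 and footprint libraries a median of 6281637 counts. Estimated counts were summed per gene and rounded, and edgeR 4.0.16 (quasi-likelihood, robust, TMM) was used for RNA, transcripts, footprints and the assay by genotype interaction, on features that reach 5 counts in 3 or more of the 6 libraries, or 10 in each assay for the interaction. Isoform ratios were log2 of TPM with a pseudocount of 0.1, tested with limma 3.58.1 (trend, robust) where mean protein_coding TPM was at least 1 and nonproductive at least 0.5. Calls were at an adjusted p of at most 0.05 over all features, in R 4.3.3. DESeq2 1.42.0, other normalisations, filters, pseudocounts, a replicate block and leaving out each library were tried where they apply. A sex covariate was tried only for RNA of genes and for the ratio of all nonproductive isoforms. The error of assigning reads between isoforms is not in the tests. Isoform structures were read from Gencode M21 on GRCm38. All 10 genes are named. Of their isoforms at a mean of at least 1 TPM the text names a part, and the class sums take in all of them. From each list genes were named from among those called, up to 5 with the smallest p in a comparison. The fits were tested on simulated data, and no result of those tests is given here. The members and lists were chosen with earlier results of these data known.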

Additional observations from a re-analysis of the deposited data

How the results depend on the processing

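The edgeR calls on *Srsf2* RNA and on *Srsf3*-201 were lost under several alternatives, and the cause was not tested. For RNA in B6J.*Gtpbp1*-/- against B6J mice edgeR called 0 SR genes with upper quartile normalisation, an offset for transcript length, protein_coding transcripts alone, sex as a covariate or a replicate block, and between 0 and 1 when each library was left out in turn. Over all genes these settings called 3349, 2234, 2866 (of 16708), 2301 and 2237, in that order, beside 3398 of 24577 in the main fit. Without 1 library edgeR called between 1890 and 3798 genes. DESeq2, no filter and all 9 libraries in one model kept *Srsf2*, and called 4284, 4325 (of 36286) and 3433 genes. In the replicate block *Srsf2* had a log2 fold change of -0.30 (adjusted p = 0.110) and *Srsf3*-201 one of 1.26 (adjusted p = 0.184). The block pairs libraries by the replicate number in their titles, and the labels link no mice by this number. Over genes, same-numbered RNA libraries of B6J.*Gtpbp1*-/- and B6J mice did not deviate together. Their Pearson's r was -0.02, -0.05 and -0.06, each below that of a differently numbered pair. For transcripts in that comparison edgeR called 0 SR isoforms with the block and between 0 and 1 when each library was left out. Of all 67667 transcripts it called 0 with the block and between 21 and 161 without 1 library, beside 484 in the main fit. DESeq2 called 7 of 69 SR isoforms, beside 5372 of all 67667 transcripts, with an adjusted p of 9.52e-30 for *Srsf3*-201. DESeq2 called 1 isoform in B6J-*Gtpbp2*-/- against B6J mice, beside 2736 of 68960 transcripts, and 1 between the mutants, beside 223 of 70389. The library share of nonproductive isoforms in B6J.*Gtpbp1*-/- against B6J mice differed by 0.927 percentage points, by 0.0961 with estimated counts in place of TPM and by 0.458 within protein-coding genes without the mitochondrial genome. It was between 0.549 (without B6J replicate 2) and 1.26 (without B6J replicate 3) when each library was left out. In B6J-*Gtpbp2*-/- against B6J mice it was 0.910, then 0.215, 0.672 and between 0.532 and 1.25 with the same alternatives. The tests of transcripts and of the NMD ratio between the mutants, with their alternatives, were chosen after seeing the data. Assignment of reads between isoforms adds error that no test here holds, and 3 mice a group leave small differences unresolved.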
